A study of Caenorhabditis elegans with 2 samples.

Results

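RNA polymerase and general transcription genes are the 66 protein-coding genes of Caenorhabditis elegans whose symbols begin with rpb-, rpc-, rpoa-, taf-, gtf- or mdt- in the Ensembl WBcel235 annotation, out of 19973 protein-coding genes on the nuclear chromosomes. They comprise 19 polymerase subunit genes (11 rpb-, 4 rpc- and 4 rpoa-), 17 TFIID genes (taf-), 10 genes of other general factors (gtf-) and 20 Mediator genes (mdt-). Binding of LIN-39, a Hox transcription factor of the mid-body, was measured at them by chromatin immunoprecipitation and sequencing. The single group was strain OP18, in which the integrated transgene wgIs18 supplies an eGFP-lin-39 fusion on an unc-119(ed3) III mutant background, harvested as whole mixed-sex L1 larvae in 2 biological replicates. There was no second genotype, stage or treatment, and the control named by the submitters was not analysed here. Because whole larvae were used, strong binding in few cells and weak binding in many cannot be told apart.

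RNA polymerases I, II and III make ribosomal, messenger and small structural RNAs respectively, and several small subunits are common to them all. At a promoter of polymerase II, TFIID recognises the core promoter, TFIIA, TFIIE, TFIIF and TFIIH help to assemble and open the complex, and Mediator connects it to DNA-bound activators. Most of these proteins are needed in every cell of the worm. Many worm genes are transcribed together as operons, so that the promoter of a downstream gene can lie in front of another gene.

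The submitters' 1488 optimal peaks are a thresholded set from both replicates together, and such a peak need not rank high in each replicate. A gene was counted as bound when an optimal summit lay between 2000 bp upstream and 500 bp downstream of its outer start. By this rule 14 of the 66 genes (21.2%) were bound, against 8.28% of all protein-coding genes. The 14 genes had 14 different strongest peaks, and no peak was shared by 2 of them. The strongest peaks were in the windows of rpb-11 in the polymerase family, mdt-19 in Mediator and taf-11.3 in TFIID. Starts of other genes were nearer to the mdt-19 and taf-11.3 summits.

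Bases around 8 of these summits are shown, 30 bases to either side of the summit. Each was read from the RefSeq WBcel235 genome on the strand of the named gene. Capitals mark matches on either strand to the TATA sequence TATAAA, the tetranucleotide GCGC, the E-box CACGTG or the CRE sequence TGACGTCA. The 8 shown are those off the UTRs that give the strongest peaks of each bound family and the 2 ends of the range of base composition; taf-10 and rpoa-1 stand for the weaker peaks.
rpb-11 (chrII:14059956-14060016, plus strand): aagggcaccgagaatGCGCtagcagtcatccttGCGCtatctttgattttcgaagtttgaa
mdt-19 (chrIII:2597278-2597338, plus strand): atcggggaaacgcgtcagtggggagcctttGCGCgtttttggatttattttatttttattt
mdt-22 (chrII:10300512-10300572, plus strand): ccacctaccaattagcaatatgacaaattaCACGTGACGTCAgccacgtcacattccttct
mdt-9 (chrIV:13386233-13386293, plus strand): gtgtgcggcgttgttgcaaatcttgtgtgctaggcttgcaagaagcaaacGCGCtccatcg
taf-8 (chrII:9669164-9669224, plus strand): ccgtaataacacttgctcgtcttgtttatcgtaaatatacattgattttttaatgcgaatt
mdt-26 (chrII:5661117-5661177, plus strand): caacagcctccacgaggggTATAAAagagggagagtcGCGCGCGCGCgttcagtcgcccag
taf-10 (chrV:4686872-4686932, plus strand): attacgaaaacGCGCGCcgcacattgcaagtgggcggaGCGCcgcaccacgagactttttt
rpoa-1 (chrII:13694868-13694928, minus strand): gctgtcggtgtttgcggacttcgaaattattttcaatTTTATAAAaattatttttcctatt

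The mdt-22 summit window carries the E-box CACGTG at its summit, overlapping the CRE sequence TGACGTCA by 2 bases, and that of mdt-26 carries TATAAA followed by a run of GCGC. Within 100 bp of the summit, the Hox-PBC composite sequence TGATNNAT was found on either strand in 1 of the 14 peaks, that of mdt-19 (7.14%, against 17% of the 1488 optimal peaks). The homeodomain core TAATTA was found in 1, that of rpb-3 (7.14% against 7.8%). TATAAA, the sequence of a classical TATA box, was found in 5 (35.7% against 15.9%), at rpoa-1, taf-8, taf-12, taf-4 and mdt-26. GAGAGA was found in 3 (21.4% against 36.6%), at taf-8, taf-12 and mdt-19. Letters that match are a description of these windows and were not tested. The median GC content of the 14 windows was 38.6%, from 30.8% at taf-8 to 61.2% at mdt-26, and that of all optimal peaks was 40.3%.

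Among the polymerase subunit genes, 4 of 19 (21.1%) were bound: rpb-11, rpb-3, rpb-7 and rpoa-1. The protein RPB-11 pairs with RPB-3 in the assembly platform of polymerase II. The rpb-11 peak (chrII:14059868-14060089) had a pooled signal of 357.4 and rank 21 of 30000 ranked regions. In replicate 1 the region there had a signal of 223.8 and rank 21, and in replicate 2 a signal of 127.4 and rank 36, so both lists placed it near their top. Signals are the submitters' peak scores, and their scales differ between lists, so that ranks and not signals are compared between replicates. The summit lay in intergenic sequence 99 bp upstream of the rpb-11 start, and the only other start with it in its window was W01G7.4, 753 bp away.

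The gene of its partner, rpb-3, had a peak of pooled signal 99.1 (rank 516) with its summit 162 bp upstream of the start. The replicate 1 region had rank 362 (signal 73.6) and the replicate 2 region rank 1000 (signal 29.4). This summit lay between rpb-3 and the divergent proteasome gene pas-4, whose start is 277 bp from that of rpb-3 and was nearer to the summit, and within an annotated noncoding RNA, C36B1.16. For rpb-7, which encodes a subunit of the polymerase II stalk, the signal was 96.2 (rank 551), with ranks of 533 and 567 and signals of 60.9 and 39.3 in replicates 1 and 2. That summit alone of the 14 lay downstream of the gene's start, 27 bp into it in a coding exon, and the opposite-strand gene Y54E10BR.2 started 24 bp from the summit.

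At rpoa-1, which encodes the largest subunit of polymerase I, the peak was weaker. Its pooled signal was 58.2 (rank 1197), with rank 1425 in replicate 1 (33.7) and 1271 in replicate 2 (25.6). The summit lay 103 bp upstream of rpoa-1, in intergenic sequence. The 4 rpc- genes of polymerase III were not bound. Neither were the 5 rpb- genes whose products are shared by all 3 polymerases (rpb-5, rpb-6, rpb-8, rpb-10 and rpb-12). With 8.28% of all protein-coding genes bound, groups of 4 and 5 genes are too small to show a lack of binding. Differences between the polymerases were not tested. Of the unbound polymerase genes, the best pooled ranks were those of rpc-11 (2778, signal 35.6), rpc-2 (3090, 33.6) and rpc-1 (3988, 30.4), the last being the largest subunit of polymerase III. The best region at rpc-11 was not the same in the replicates. It had rank 1704 and a summit 490 bp upstream in replicate 1, and rank 26214 and a summit 165 bp upstream in replicate 2. For rpb-6 no ranked region of any list had its summit in the window.

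The shared subunit gene rpb-10 differed from the other unbound genes, because both replicates had a strong region at it while the pooled list had none. Replicate 1 placed a region of signal 61.6 at rank 521 with its summit 243 bp upstream of the start, and replicate 2 one of signal 24.8 at rank 1357 with its summit 237 bp upstream. No pooled region had its summit in the window. Of the 1488 strongest replicate 1 regions in the genome, 1013 coincided with a region among the 1488 strongest of replicate 2, and the one at rpb-10 was among just 3 of these that no pooled region overlapped. The divergent gene Y37E3.1 starts 295 bp from rpb-10, on the other side of these summits. By the optimal peaks rpb-10 is unbound, and by the strongest regions of either replicate it is bound.

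TFIID genes were bound in 5 of 17 cases (29.4%): taf-11.3, taf-8, taf-12, taf-10 and taf-4. The strongest peak, with signal 199.9 (rank 110; ranks 87 and 221 and signals 132.8 and 63.1 in replicates 1 and 2), was in the window of taf-11.3, a gene of the TAF11 family. It lay 1813 bp upstream of that gene, however, and 5 bp from the start of sly-1, in a 5' UTR, with sip-1 also nearer at 262 bp. The other 4 summits were nearer to the TFIID gene than to any other protein-coding start.

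The histone-fold proteins TAF8 and TAF10 are partners in TFIID, as are TAF4 and TAF12. At taf-8 the signal was 89.0 (rank 634), with ranks of 614 and 641 and signals of 57.0 and 37.1 in replicates 1 and 2, and the summit lay 124 bp upstream with no other start in reach. At taf-10 the signal was 63.4 (rank 1073) and the summit lay 201 bp upstream. Its region had rank 927 and signal 43.6 in replicate 1 and rank 2415 and signal 18.5 in replicate 2. It was the only one of the 14 bound genes whose best region fell outside the 1488 strongest of a replicate.

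The taf-12 summit stood 939 bp upstream of its gene, with a signal of 78.3 (rank 782; ranks 646 and 1071 and signals 55.8 and 28.3 in replicates 1 and 2). The taf-4 summit stood 290 bp upstream, toward the divergent gene pqn-59, with a signal of 58.9 (rank 1171; ranks 1351 and 1261 and signals 34.7 and 25.7). Of the 5 TFIID peaks, that of taf-4 had the lowest pooled signal. Some genes of other histone-fold TAFs were not bound, namely taf-3, taf-6.1, taf-6.2, taf-9 and taf-13.

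Of the 12 unbound TFIID genes, taf-7.2 (pooled rank 2079, signal 40.8), taf-6.2 (2455, 37.5) and taf-3 (2548, 37.0) ranked best. The gene of the largest TFIID subunit, taf-1, had a best pooled rank of 17974 (signal 17.4) and no region in replicate 1. No list held a region for taf-11.1 or taf-6.1. Among the paralogues, taf-11.3 had an optimal peak, taf-11.2 a pooled region ranked 3678 and taf-11.1 none, and taf-6.2 had a pooled region where taf-6.1 had none. The taf-11.3 peak, 5 bp from the sly-1 start, no longer counted for taf-11.3 with a window of 1000 or 500 bp upstream or with the nearest start alone. How reads that match paralogues equally were treated is not given in the sources used here.

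Mediator genes were bound in 5 of 20 cases (25%): mdt-19, mdt-22, mdt-9, mdt-6 and mdt-26. The mdt-19 peak had a signal of 229.8 and rank 75, with ranks of 98 and 63 and signals of 127.3 and 105.8 in replicates 1 and 2. Its summit lay 745 bp upstream of mdt-19, which encodes a subunit of the Mediator head, but only 274 bp upstream of the divergent gene apb-1. At mdt-22, another head subunit gene, 2 optimal summits fell in the window, the only such case among the 66 genes. The stronger (signal 132.1, rank 298; ranks 387 and 239 and signals 71.7 and 61.05 in the replicates) lay 674 bp upstream and nearer to the divergent gene nep-26, and the weaker (76.2, rank 815) lay 76 bp upstream of mdt-22.

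The other Mediator peaks had lower signals. For mdt-9, a middle module gene, the signal was 90.3 (rank 617), with ranks of 772 and 356 and signals of 48.9 and 51.1 in replicates 1 and 2. This summit, 117 bp upstream of mdt-9, had 4 other starts in reach, the nearest being Y62E10A.23 at 61 bp. For mdt-6, a head gene, the signal was 71.2 (rank 899; ranks 1165 and 684, signals 37.6 and 36.03), and the summit, 910 bp upstream, lay 4 bp from the start of Y57E12AL.1 in a 5' UTR. For mdt-26 the signal was 69.7 (rank 924; ranks 883 and 1379, signals 45.1 and 24.6), and the summit, 34 bp upstream, was nearer to mdt-26 than to any other gene start.

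Among the 15 unbound Mediator genes, mdt-1.2 had the best pooled region, at rank 1614 with a signal of 47.8, just outside the weakest optimal signal of 50.03. Its region, 124 bp upstream of the start by the pooled summit, was ranked 1537 in replicate 1 and 1101 in replicate 2. Next came mdt-8 (pooled rank 1878, signal 43.4) and mdt-30 (2488, 37.4). The gene of the fat metabolism regulator MDT-15 had a pooled rank of 12740 (signal 20.1), 10688 in replicate 1 and 2557 in replicate 2. The summits of these best regions lay 1375, 507 and 1563 bp upstream, in that order. No list held a region for mdt-20.

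**Figure D1:**
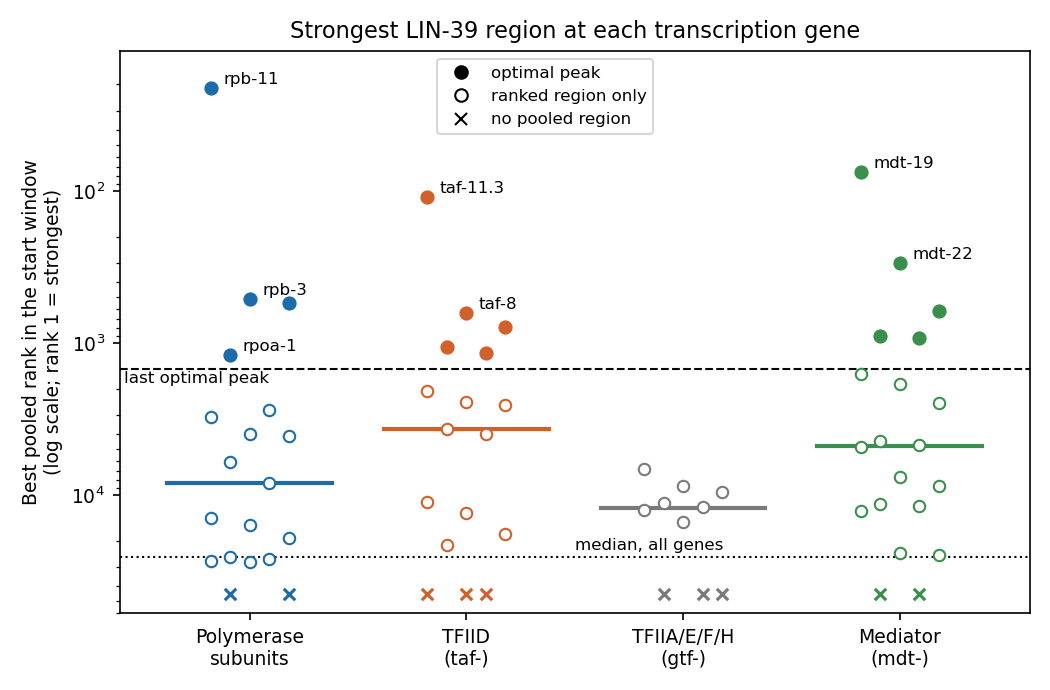
Best pooled rank of any region whose summit lies in the start window, on a log axis with the strongest at the top, for the 66 genes by family. Filled points are genes with an optimal peak, open points have a weaker ranked region, crosses have no pooled region (drawn below the axis range of ranks), bars are family medians with such genes ranked last, the dashed line is rank 1488 and the dotted line is the median of all protein-coding genes. Polymerase, TFIID and Mediator genes each reach above the dashed line, and all 10 gtf- genes lie below it.

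None of the 10 gtf- genes was bound. They encode the small TFIIA subunit (gtf-2A2), TFIIE (gtf-2E1, gtf-2E2), TFIIF (gtf-2F1, gtf-2F2) and TFIIH subunits. A share of 8.28% of 10 genes is less than 1 gene, and differences between the families were not tested. The best pooled ranks in this family were 6721 for gtf-2H3 (signal 25.4), 8717 for gtf-2H1 (23.1) and 9565 for gtf-2E1 (22.4). With genes lacking a region ranked last, the median best pooled rank was 12282 for gtf- genes, 8343 for polymerase genes, 4795.5 for Mediator genes and 3678 for TFIID genes, against 25809 for all protein-coding genes. The middle ranks overlapped widely, with quartiles of 1171 and 17974 for TFIID and of 2934 and 26140 for the polymerases.

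Weaker regions were present at most of the 66 genes. A pooled ranked region had its summit in the window of 56 genes (84.8%, against 54.9% of all protein-coding genes), including 42 of the 52 without an optimal peak. In replicate 1 the count was 57 (86.4% against 55.6%) and in replicate 2 it was 53 (80.3% against 56.5%). The 30000 pooled regions reach down to a signal of 13.4, against 50.03 for the weakest optimal peak.

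The replicates placed the strong peaks alike. For the bound genes this follows in part from the rule, because the optimal peaks were the 1488 strongest regions of both replicates pooled. Among the 1488 strongest regions of replicate 1, 15 of the 66 genes had a summit (22.7%, against 8.03% of all genes), and among those of replicate 2 also 15 (22.7% against 7.96%). In both replicates at once it was 14, of which 13 were bound by the optimal peaks and the other was rpb-10. Only taf-10 was found in replicate 1 alone and only mdt-1.2 in replicate 2 alone. Over the 48 genes with a region in both replicates, Spearman's rho of the best ranks was 0.72, and over the 7755 protein-coding genes with a region in both it was 0.60. These values run across genes that share the same libraries and are descriptions. A gene's best regions in the 2 replicates need not lie at the same site.

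**Figure D2:**
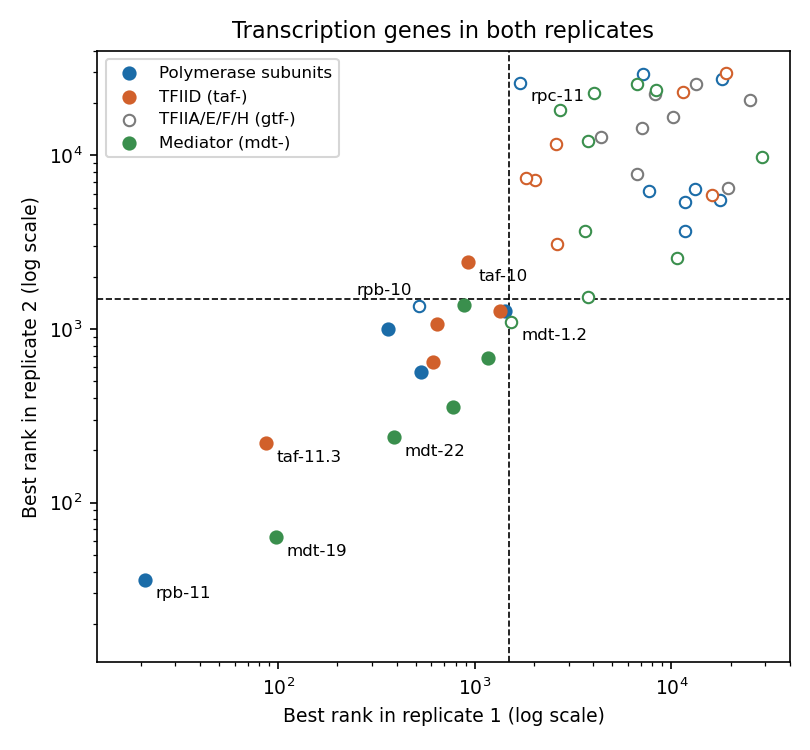
Best rank in replicate 1 against best rank in replicate 2, both on log axes, for the 48 genes with a region in both. Filled points have an optimal peak, colours give the family and dashed lines mark rank 1488. The bound genes, whose peaks were taken from both replicates pooled, run along the diagonal from rpb-11 (21 and 36). Without an optimal peak, rpb-10 (521 and 1357) lies among them. Far from the diagonal lies rpc-11 (1704 and 26214), whose best regions are at different sites in the replicates.

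The bound summits lay mostly close upstream of the genes. Of the 14 strongest summits, 13 were upstream, and these had a median distance of 201 bp. The window itself favours upstream summits, as it reached 2000 bp upstream and only 500 bp downstream. For all bound protein-coding genes the lower quartile of the upstream distance was 145 bp, so most of their summits were upstream too. Over all 14, with downstream counted as negative, the median was 181.5 bp upstream, against 289 bp for the 1653 bound protein-coding genes counted in that way. The medians by family were 101 bp for the polymerase genes, 290 bp for TFIID and 674 bp for Mediator. Each rests on only 4 or 5 genes. The Mediator value is the stronger summit of mdt-22, a gene with another optimal summit 76 bp upstream. The median signal of the 14 was 89.6 and that of all bound genes was 87.4. Assignment was shared at most of them: in 12 of 14 cases the summit also fell in the window of another protein-coding gene, and in 7 another start was nearer. With each summit given to its nearest start alone, 8 of the 66 genes were bound (12.1%, against 5.14% of all genes): 2 polymerase, 4 TFIID and 2 Mediator genes.

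**Figure D3:**
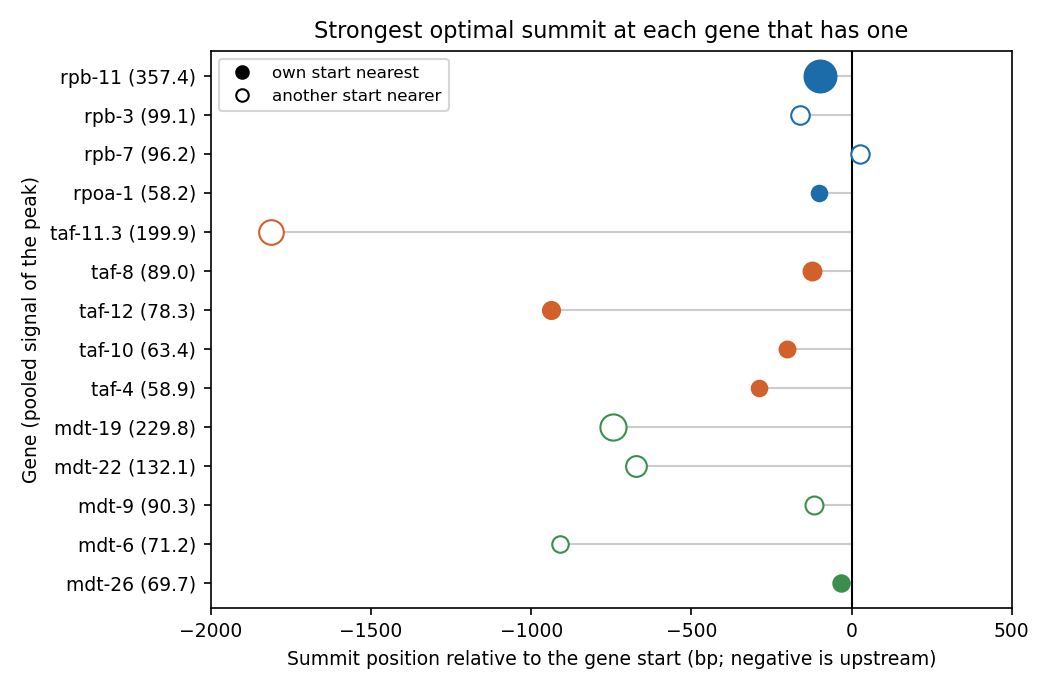
Position of the strongest optimal summit relative to the gene start, in bp with upstream negative, for the 14 bound genes ordered by family and signal. Point area grows with the pooled signal given beside each symbol, and open points mark summits nearer to the start of another gene. Polymerase summits lie within 162 bp of the start, and the taf-11.3 summit is farthest, at 1813 bp.

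Upstream neighbours were counted for bound and unbound genes. A protein-coding gene on the same strand ended within 500 bp upstream of the start of 27 of the 66 genes (40.9%), against 18.1% of all protein-coding genes. Of these 27, only mdt-6 was bound (3.7%), while 13 of the other 39 were bound (33.3%). For all protein-coding genes the shares were 8.46% with such a neighbour and 8.24% without. A start of an opposite-strand gene lay within 1000 bp upstream of 13 genes, of which 6 were bound (46.2%), against 8 of the other 53 (15.1%). For all protein-coding genes these shares were 19.1% and 5.95%. No test was made of these differences. The split depends on the limit: of the 8 bound genes without such a start, mdt-19 and mdt-22 had opposite-strand starts at 1019 and 1084 bp. For rpb-7, also among the 8, the opposite-strand neighbour Y54E10BR.2 starts just inside rpb-7 and was not counted as upstream.

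**Figure D4:**
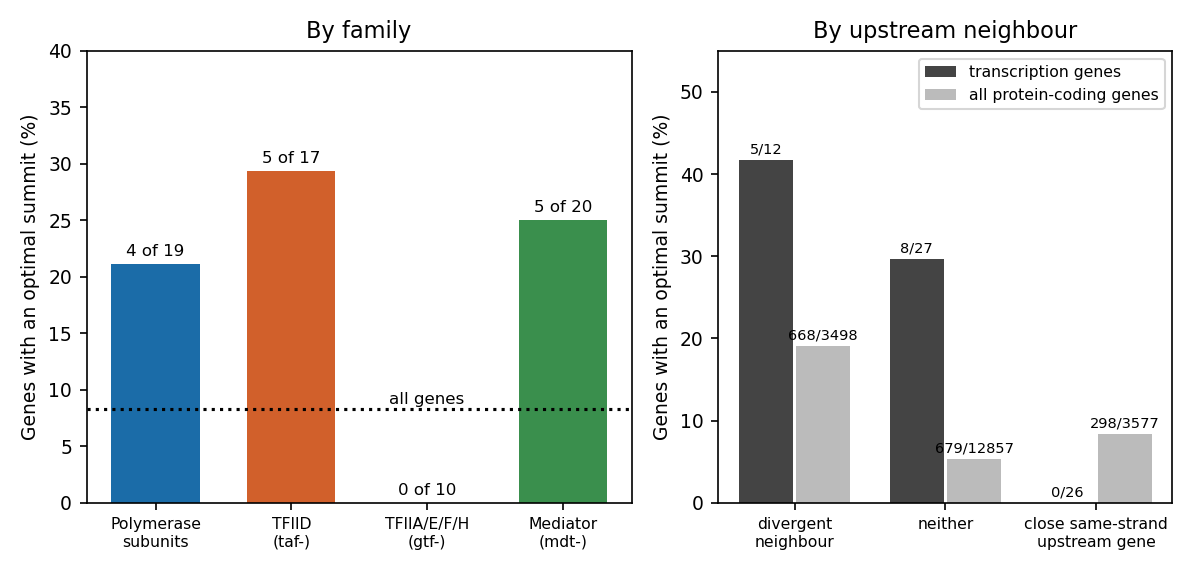
Share of genes with an optimal summit in the start window. The left bars give each family with its count, and the dotted line is the 8.28% of all protein-coding genes. The right bars split the genes by upstream neighbour, with the 66 transcription genes dark and all protein-coding genes light. The 1 transcription gene with both kinds of neighbour, mdt-6, is left out there, and the dark bar for a close same-strand neighbour is 0 of 26. The dark bar for neither kind includes mdt-19, mdt-22 and rpb-7, whose opposite-strand neighbours fell outside the limits of the count.

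In runs of close same-strand genes, a peak can lie in front of the first gene and outside the window of a later one, and this was looked at after the counts above were known. The first gene of the run was bound for 7 of the 27 transcription genes in such a position (25.9%), against 16.4% of the 3618 protein-coding genes in such a position. They were 3 gtf- genes, rpc-2, rpoa-12, mdt-11 and, bound itself, mdt-6. Before mdt-11 the peak was at wip-1 (signal 160.1, rank 199; ranks 216 and 161 in the replicates), 2898 bp upstream of mdt-11. Before gtf-2E2 it was at F54D5.9 (signal 123.2, rank 339; ranks 371 and 369), and before gtf-2F2 at Y39B6A.37 (87.5, rank 646; ranks 711 and 608). These 2 summits lay 2997 and 3466 bp upstream of the gtf- genes.

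Before rpc-2, a catalytic-core gene of polymerase III, the peak was at hach-1 (signal 106.2, rank 452; ranks 458 and 532), 2241 bp upstream. Before rpoa-12 it was at rrsr-1 (52.3, rank 1393; ranks 1173 and 2759), 2031 bp upstream and thus just outside the window. The third gtf- gene, gtf-2H5, lay 20824 bp from the summit at the far end of its run, with replicate ranks of 6024 and 710. Counting a gene as bound when it or the first gene of its run had a summit gave 20 of 66 (30.3%), against 10.4% of all protein-coding genes, with 6 polymerase, 5 TFIID, 3 gtf- and 6 Mediator genes. Whether these runs are operons is not given by the annotation used.

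Other genes of the transcription machinery have names of other schemes. Of a list of 39 such genes, 8 (20.5%) had an optimal summit in the window, beside 21.2% of the 66 and 8.28% of all protein-coding genes. Whether the start of another gene was nearer to these summits was not examined. The windows of rpac-19 and emb-5 held 2 optimal summits each, of which the stronger is given. The strongest was at pafo-1, a gene of the PAF1 elongation complex (signal 184.8, rank 136; ranks 96 and 219 in replicates 1 and 2), 77 bp upstream. The kinase gene of TFIIH, cdk-7, followed with a signal of 122.5, 67 bp upstream (rank 345; ranks 389 and 256). Next were rpac-19 (121.2), which encodes a subunit common to polymerases I and III, at 1598 bp, the exonuclease gene xrn-2 (109.4) at 1216 bp and the elongation kinase gene cdk-9 (104.4) at 153 bp.

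The last of the 8 were emb-5 (91.8), the SPT6 homologue, cic-1 (86.9), the cyclin C of the Mediator kinase module, and ama-1. The gene ama-1, which encodes the largest subunit of polymerase II, had a peak 523 bp upstream with a signal of 50.6 and rank 1464, close to the end of the optimal set. Its best region was ranked 946 in replicate 1 and 9185 in replicate 2. No pooled region fell in the window of tbp-1, which encodes the TATA-binding protein, and the TFIIB gene ttb-1 was not bound.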

How the data were processed

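The deposited files are headerless narrowPeak lists on ce11, derived from alignments of the replicates and of a control, per the submitters' file notes: 30000 ranked regions for each replicate and for both pooled, and 1488 optimal peaks, which were also the 1488 strongest pooled regions. No source used here names the aligner, the caller of peaks or the cutoff. The deposited score of a region (its signal value, with no stated scale) was used to rank regions within a list, and the deposited summit offset in bp placed the summit. Depth is unknown. Both samples are labelled as biological replicates.

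Genes were taken from Ensembl release 115 (WBcel235, the same assembly as ce11; 0 regions ran beyond a chromosome end). Analyses used Python 3.11.15, numpy 2.4.6 and pandas 2.3.3. A gene's strongest summit from 2000 bp upstream to 500 bp downstream of its outer start was used; starts of internal transcripts were an alternative. The window search was checked on 200 planted summits, of which 200 were recovered. With 1 group, no test was made and no p-value is given. The members, lists and windows were chosen with earlier results of these data known. Named were all bound members, the 3 best-ranked unbound members of each family, members without any region, and bound genes of the list of other transcription genes; rpb-10, taf-1, taf-11.2, mdt-15, rpoa-12, tbp-1 and ttb-1, the runs, and all motifs but those of Hox proteins, TATAAA and GAGAGA, were added after their values were seen. The ce10 lists were not used here.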

Additional observations from a re-analysis of the deposited data

How the results depend on the processing

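Each count of bound genes was recomputed under 11 alternatives. Of the 44 recomputed counts with a reported value above 0, 34 stayed within 1.5 times it. Of the 11 gtf- counts, 9 were again 0. Alternatives that only narrow the main rule, such as a shorter window or fewer peaks, could not have raised a count of 0. With each summit given to the nearest start, 8 of the 66 genes were bound (12.1%, against 5.14% of all protein-coding genes), with 2 polymerase and 2 Mediator genes. With only the 744 strongest optimal peaks, 8 were bound (12.1% against 4.66%), with 2 TFIID and 3 Mediator genes. With 500 bp upstream, 3 TFIID (17.6%) and 3 Mediator genes (15%) were bound, against 5.56% of all genes. With the 3000 strongest pooled regions, 8 TFIID (47.1%) and 8 Mediator genes (40%) were bound, against 13.5%. For gtf- genes the count of 0 became 3 of 10 (30%, against 12.6% of all genes) with 5000 bp upstream, and 3 (30% against 10.4%) with the first gene of a run counted, the one alternative added after seeing the data. The cause was not tested beyond what each rule itself sets. From 1 replicate alone, 15 genes were bound with either, 5 polymerase genes with either, 5 or 4 TFIID genes, 5 or 6 Mediator genes and 0 gtf- genes, with replicate 1 named first. Under the 6 alternatives run for it, the median signal of bound genes ranged from 72.95 with the nearest start to 115.6 with the 744 strongest peaks. No paired analysis was possible because there is 1 group. Without read numbers, what depth limits could not be judged.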

Other observations

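The tetranucleotide GCGC, noticed in the printed windows and then counted, occurred within 100 bp of the summit in 11 of the 14 peaks (78.6%), against 56.2% of the 1488 optimal peaks. The exceptions were taf-12, taf-4 and mdt-22. The mdt-22 window was instead the only one of the 14 with CACGTG (7.14%, against 8.4%) and the only one with TGACGTCA (7.14%, against 1.75%). These sequences were picked from the same windows in which they were counted, and no test was made.

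The optimal summit nearest to gtf-2E1, a TFIIE gene, lay 5406 bp upstream, outside the widest window tried, and had a signal of 400.6. The nearest optimal summit to gtf-2F1 lay 2163 bp upstream, with a signal of 199.5. For gtf-2A2 of TFIIA it lay 1685 bp downstream, with a signal of 79.7. Of the TFIIH genes, gtf-2H2C had its nearest 5956 bp upstream (signal 108.9), and gtf-2H1, gtf-2H3, gtf-2H4 and gtf-2H5 had theirs between 18435 and 23874 bp away.

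Besides the region at rpb-10, the other regions in the strongest 1488 of both replicates without an overlapping pooled region lay on chromosome V, at ranks 1145 and 1079 and at ranks 1236 and 409 in replicates 1 and 2.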
